A study of Mus musculus with 10 samples.

Results

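The comparison described here sets the TLR9 knockout line against the wild-type line after both had been given glucan beads. It rests on 5 arrays of 10 in the series, chosen by their titles alone: 2 arrays of the immortalized murine macrophages titled TLR9KO and 3 of those titled wild-type B6. All 5 came from cells that had met β-1,3 glucan beads at 20 beads per cell for 4 h. The 5 other arrays, 2 knockout and 3 wild-type, came from the same lines left without beads. Each genotype is a single named line, so effects of the deleted gene and other differences between the lines cannot be told apart. How the cells were immortalized, whether either line is 1 clone, which part of Tlr9 was removed, the age of the source mice and whether each array had a culture of its own are not stated in the sources used here, so p-values measure the spread between arrays and nothing beyond it. The knockout arrays also carry the lowest numbers in their titles (1 and 2, against 10, 11 and 12 for wild type), and the meaning of these numbers is not described.

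β-1,3 glucan is a sugar of the fungal cell wall that macrophages bind through Dectin-1, a C-type lectin that signals through the kinase Syk and the adaptor Card9 to NF-kappaB and drives phagocytosis. TLR9 is a receptor for CpG-rich DNA that sits in endosomes and lysosomes and signals through Myd88 to NF-kappaB and to interferon regulatory factor 7. Type I interferon in turn acts through its receptor and JAK kinases, and the genes it switches on often carry an interferon-stimulated response element in front of them.

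Values are log2 signals made by the authors with RMA, 1 probe set per gene. A difference is always knockout minus wild type with beads on that log2 scale, given with the standard error (SE) of the limma fit, and n is 2 knockout and 3 wild-type arrays, or 2 and 2 where wild-type bead array 3 is left out. A gene passed, and is called higher or lower in the knockout line, when its p, adjusted by Benjamini and Hochberg's method over 19938 genes, was under 0.05. Levels are compared between arrays for the same gene and not between genes. Where all arrays of a line lay below the 25th percentile of their own array, the level is called low, and the size of the difference is then not a measured fold.

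Wild-type bead array 3, the one numbered 12, stood apart from its group, so every result below was computed with and without it. Its SD over genes was 1.75, against 1.86 to 2.00 in the other 9 arrays, and its mean Pearson correlation with its group mates across genes was 0.973, against 0.985 to 0.997 elsewhere. Against the mean of wild-type bead arrays 1 and 2 it read higher by a median of 0.41 for the 6768 genes with signals of 5 to 7 (mean of the other 4 bead arrays), and by a median of -0.36 for the 5113 genes of 7 to 9. In the text it is called wild-type array 3.

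With beads, 1439 of 19938 genes passed (7.22%), 761 of them higher in the knockout line (3.82%) and 678 lower (3.40%). Of these, 294 and 190 differed at least 2-fold. Without wild-type array 3 the same fit passed 4171 genes (20.9%), 1433 higher (7.19%) and 2738 lower (13.7%), with 277 and 308 at least 2-fold. All 1439 genes passed again in the same direction, and 2732 were added, 672 higher and 2060 lower. The share of higher genes among those that passed thus went from 52.9% to 34.4%. It was 45.2% (1834 higher, 2224 lower) when the 9 remaining arrays were also quantile normalised. Signals of the 5 bead arrays did not overlap between the lines in 4705 genes (23.6%), all 1439 among them. Leaving out knockout bead array 1 or 2 reduced the number that passed to 693 or 597. The 5 bead arrays fitted alone passed 480 genes, and arrays centred on their medians passed 734. The RNA came from whole cultures, so fewer cells of a kind and less RNA per cell cannot be told apart.

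The genes named next were chosen to pass with and without wild-type array 3 and to show no overlap between the lines. Irf7, a transcription factor that boosts the making of type I interferon, read 11.06 and 11.45 in knockout against 6.40, 6.45 and 6.20 in wild type, a 30-fold difference (4.91 ± 0.13, and 4.83 without wild-type array 3). The calcium-binding protein S100a6 read 10.35 and 10.65 in knockout against 6.19, 6.20 and 5.83 in wild type (4.43 ± 0.17, 21.5-fold). Slc43a3, a nucleobase transporter, read 9.42 and 9.54 in knockout against 5.18, 5.42 and 5.88 in wild type (3.99 ± 0.21). In each of these genes the knockout arrays lay far above all 3 wild-type arrays. The choice of genes fixed the lack of overlap in advance, and favoured genes in which wild-type array 3 lay with its group. Il7r, the interleukin 7 receptor chain, was low in wild type (8.07 and 8.39 in knockout against 4.47, 4.54 and 4.61 in wild type), as was the lectin Clec2d (7.74 and 8.36 in knockout against 4.65, 4.57 and 4.86 in wild type). Emp2, a membrane protein of the tetraspan type, was higher by 3.20 ± 0.16.

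On the lower side Ccn3, a matricellular protein that cells secrete, read 5.76 and 5.64 in knockout against 11.86, 11.90 and 11.58 in wild type (-6.08 ± 0.11, 67.5-fold lower). Eya1, a developmental transcription coactivator and phosphatase, read 5.39 and 5.19 in knockout against 10.51, 10.35 and 10.01 in wild type (-5.00 ± 0.16). Nedd4, a ubiquitin ligase, read 5.74 and 5.78 in knockout against 10.38, 10.35 and 10.16 in wild type (-4.54 ± 0.10). All of these were strongly expressed in wild type, and their knockout values lay near the lower part of the array, though not below its 25th percentile. Gstp1, a glutathione transferase, lay below it in both knockout arrays (4.72 and 4.69 in knockout against 10.16, 10.20 and 9.65 in wild type), as did the kallikrein Klk1b11 (4.34 and 4.66 in knockout against 7.84, 7.74 and 7.56 in wild type). Atp2a3, a calcium pump of the endoplasmic reticulum (-3.11 ± 0.18), and the long noncoding RNA Lncenc1 (-3.03 ± 0.18) were lower too. Among all genes that passed, 43 of the higher ones were low in wild type and 23 of the lower ones were low in knockout.

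**Figure D1:**
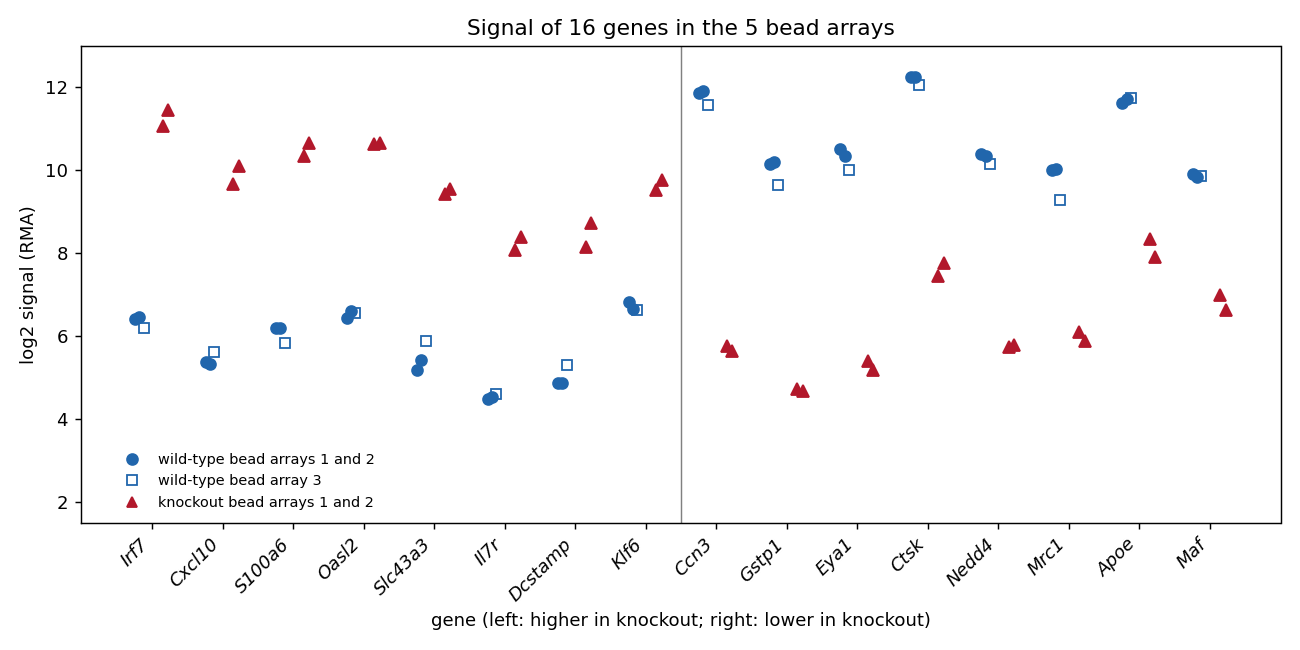
Log2 signal (RMA) of 16 genes in the 5 bead arrays. Each point is 1 array: filled circles are wild-type bead arrays 1 and 2, open squares wild-type bead array 3, triangles the 2 knockout bead arrays. The lines do not overlap in any of the 16 genes, as in every gene that passed with beads, so the choice of genes fixed this. The open squares lie with the other wild-type arrays, as for Irf7 (6.40, 6.45 and 6.20 against 11.06 and 11.45).

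List counts below can be set beside the shares of all genes, 3.82% higher and 3.40% lower. Without wild-type array 3 these were 7.19% and 13.7%. The shares varied with signal. Of the 5691 genes under signal 5, 21 were higher and 9 lower, and of the 5113 genes of 7 to 9, 336 and 291. Without wild-type array 3, 1492 of those 5113 were lower. The lists were not matched for signal and were chosen with earlier results known. Of the interferon-induced effectors, proteins that block virus entry, translation, assembly or release, 31 of 43 were higher and 0 lower (33 and 0 without wild-type array 3), with a median difference of 1.40, against a median of -0.01 over all genes tested. Rsad2 (viperin), which makes a chain-terminating nucleotide, read 8.52 and 8.89 in knockout against 5.22, 5.24 and 5.53 in wild type, and was 10.4-fold higher (3.38 ± 0.14). Ifit1, which binds foreign RNA caps, was low in wild type and read 7.93 and 8.38 in knockout against 4.44, 4.44 and 4.79 in wild type. Rtp4 was low there too, at 9.05 and 9.36 in knockout against 4.33, 4.40 and 4.82 in wild type. Ifi27l2a, an interferon-induced membrane protein, was higher by 3.27 ± 0.21. For these 4 genes both knockout arrays lay above all wild-type arrays, by at least 2 log2 units. Usp18, which removes ISG15 from its targets and damps interferon signalling, was higher by 2.88 ± 0.16, Ifit3, low in wild type, by 2.75 ± 0.18 and Trim30a by 2.58 ± 0.22. Without knockout bead array 2, Bst2, Ifi203, Ifitm3, Ifitm6, Mx2, Phf11d, Shisa5 and Trim30d lost their calls (adjusted p = 0.0722 to 0.309). Bst2, Ifi203, Ifitm3 and Mx2 also lost theirs without knockout bead array 1 (adjusted p = 0.0561 to 0.155). Ifi203, Ifitm3 and Mx2 did so without some other single arrays too.

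The promoters of 4 of the higher interferon-responsive genes and of Irf7 are shown because these genes moved together and the element in question can be read in them. Each line is the 250 bases before the RefSeq start of transcription (GRCm38.p6), on the gene's strand, and capitals mark each match to the core of the interferon-stimulated response element, GAAA and GAAA with any 2 bases between them, searched on both strands with overlapping matches counted.
Cxcl10 (chr5:92348890-92349139, minus strand): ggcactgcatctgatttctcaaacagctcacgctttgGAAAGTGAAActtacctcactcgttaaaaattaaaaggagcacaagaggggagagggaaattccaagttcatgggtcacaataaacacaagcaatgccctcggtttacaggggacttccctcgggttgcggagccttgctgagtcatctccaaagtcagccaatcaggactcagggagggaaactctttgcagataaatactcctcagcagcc
Ifit1 (chr19:34640639-34640888, plus strand): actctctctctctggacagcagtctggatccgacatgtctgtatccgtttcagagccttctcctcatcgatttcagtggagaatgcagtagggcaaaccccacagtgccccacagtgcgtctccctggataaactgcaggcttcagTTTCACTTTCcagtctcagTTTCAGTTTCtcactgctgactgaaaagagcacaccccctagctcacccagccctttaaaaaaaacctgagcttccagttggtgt
Ifit3 (chr19:34583279-34583528, plus strand): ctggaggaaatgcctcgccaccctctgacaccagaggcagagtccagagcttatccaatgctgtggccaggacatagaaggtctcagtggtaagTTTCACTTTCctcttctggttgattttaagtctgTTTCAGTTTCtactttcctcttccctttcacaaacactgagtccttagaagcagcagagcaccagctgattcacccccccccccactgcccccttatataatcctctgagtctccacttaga
Rsad2 (chr12:26456453-26456702, minus strand): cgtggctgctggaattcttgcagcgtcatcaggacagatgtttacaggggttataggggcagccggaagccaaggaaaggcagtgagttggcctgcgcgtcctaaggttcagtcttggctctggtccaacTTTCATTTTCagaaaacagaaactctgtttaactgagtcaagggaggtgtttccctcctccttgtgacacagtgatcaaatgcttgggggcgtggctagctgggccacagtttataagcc
Irf7 (chr7:141266425-141266674, minus strand): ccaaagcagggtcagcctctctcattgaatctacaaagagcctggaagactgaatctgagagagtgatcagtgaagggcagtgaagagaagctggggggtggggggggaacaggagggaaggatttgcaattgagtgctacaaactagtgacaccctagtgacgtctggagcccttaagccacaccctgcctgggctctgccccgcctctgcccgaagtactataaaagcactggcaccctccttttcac
The last base of the match lay 204 bases before the start in Cxcl10, 95 and 76 in Ifit1, 147 and 113 in Ifit3, and 111 in Rsad2, and these letters were not in the Irf7 window. The core was in 2.98% of all 32851 promoter windows of this length. Of 25 higher effectors with a promoter in the table, 11 held it (44%), as did 4 of the 9 effectors that did not pass (44.4%). Among all genes higher in the knockout line 41 of 608 held it (6.74%), among the lower ones 19 of 557 (3.41%), and among all genes tested 531 of 15614 (3.4%). A match is a description of these letters and does not show binding.

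Of the OAS enzymes, RNase L and PKR, 7 of 9 were higher and 0 lower (7 and 0 without wild-type array 3), with a median difference of 1.18. Oasl2, an OAS-like protein, read 10.64 and 10.65 in knockout against 6.43, 6.61 and 6.56 in wild type (4.11 ± 0.11, 17.3-fold higher), with no overlap and less than 0.2 between arrays of a line. Oas2 (2.97 ± 0.15) and Oas3 (2.29 ± 0.15), which make the 2′-5′ oligoadenylates that activate RNase L, and Oasl1 (1.32 ± 0.11) were higher. Of the guanylate-binding proteins and immunity-related GTPases, which attack the vacuoles of intracellular microbes, 5 of 9 were higher and 0 lower (6 and 0 without wild-type array 3), with a median difference of 0.46. Gbp7 (2.28 ± 0.16), Irgm1 (1.93 ± 0.21), Gbp3 (1.75 ± 0.16) and Gbp9 (1.10 ± 0.16) led them, though Gbp9 did not pass with the bead arrays alone (adjusted p = 0.0601). Iigp1, the other one, was low in both lines. Of the nucleic acid sensors and nucleases, 4 of 14 were higher and 0 lower (5 and 3 without wild-type array 3), with a median difference of 0.21. Ifih1, the RNA sensor MDA5 (2.08 ± 0.15), and its relative Dhx58 (1.91 ± 0.15) were higher, as were the nucleotide phosphatase Samhd1 (0.97 ± 0.14) and the ubiquitin ligase Trim25 (1.05 ± 0.20). Samhd1 did not pass with the bead arrays alone (adjusted p = 0.0594). Aim2, Ikbke and Rnaseh2b did not pass with all arrays and were lower without wild-type array 3 (-0.99, -0.81 and -0.51), where 13.7% of all genes were. Calls that did not hold with 1 array left out were those of Trim25 without knockout bead array 1 or 2 (adjusted p = 0.0751 to 0.116), and Iigp1 with any 1 array left out except wild-type array 3 and knockout bead array 1 (adjusted p = 0.0687 to 0.437).

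Of the interferon receptors, JAK kinases and STATs, 6 of 14 were higher and 0 lower (7 and 1 without wild-type array 3), with a median difference of 0.50. Without knockout bead array 2 that count of 6 was 2. Stat2 read 8.35 and 8.43 in knockout against 6.73, 6.46 and 6.73 in wild type (1.75 ± 0.12), and Irf9, its DNA-binding partner, 8.32 and 8.16 in knockout against 6.84, 6.79 and 7.04 in wild type (1.35 ± 0.12). The receptor chains Ifngr1 (0.85 ± 0.19) and Ifnar1 (0.67 ± 0.15) differed by less. Of interferon regulatory factors, 3 of 8 were higher and 0 lower (5 and 0 without wild-type array 3), with a median difference of 0.50. Besides Irf7 these were Irf5 (1.26 ± 0.16), which acts below Toll-like receptors, and Irf1 (0.80 ± 0.09), whose second probe set differed by 0.05 only. The interferon genes themselves were not among them. Of 6 measured 0 passed, and at an unadjusted p under 0.05 the whole table held 3202 genes. Ifnb1 read 4.89 and 4.65 in knockout against 4.62, 4.77 and 5.27 in wild type (-0.12 ± 0.18, adjusted p = 1, and 0.657 without wild-type array 3). It was low in knockout, and wild-type bead arrays 1 and 2 also lay below their 25th percentile. At such levels a difference could be missed. Ifna2 (-0.16 ± 0.14) and Ifna4 (-0.27 ± 0.14) had the widest differences of that list, and Ifna4 was low in both lines. With 1 array left out, the calls lost were those of Ifnar1 without knockout bead array 2 (adjusted p = 0.241), and Ifngr1 without knockout bead array 1 or 2, wild-type bead array 2 or wild-type unstimulated array 1 (adjusted p = 0.0511 to 0.275).

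Of the genes of MHC class I presentation, the machinery that cuts proteins and loads peptides for CD8 T cells, 8 of 14 were higher and 0 lower (9 and 0 without wild-type array 3), with a median difference of 0.52. Its count of 8 was 3 without knockout bead array 2. Tapbp, the loading chaperone tapasin, read 10.57 and 10.72 in knockout against 9.59, 9.47 and 9.13 in wild type (1.25 ± 0.14), the peptide transporter subunit Tap1 8.61 and 8.76 in knockout against 7.54, 7.43 and 7.39 in wild type (1.23 ± 0.12). The immunoproteasome subunit Psmb9 (0.87 ± 0.13) and the class I molecule H2-Q4 (1.03 ± 0.16) were higher, Psmb9 not with the bead arrays alone (adjusted p = 0.061). Of the class II and costimulation genes, 1 of 11 was higher and 0 lower (2 and 1 without wild-type array 3), with a median difference of 0.04. Its 1 higher gene, Cd74, the invariant chain that escorts class II molecules, read 11.28 and 11.51 in knockout against 9.71, 9.55 and 8.71 in wild type (2.07 ± 0.26, 4.21-fold). The call of H2-Q4 was lost without knockout bead array 2 (adjusted p = 0.0595).

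**Figure D2:**
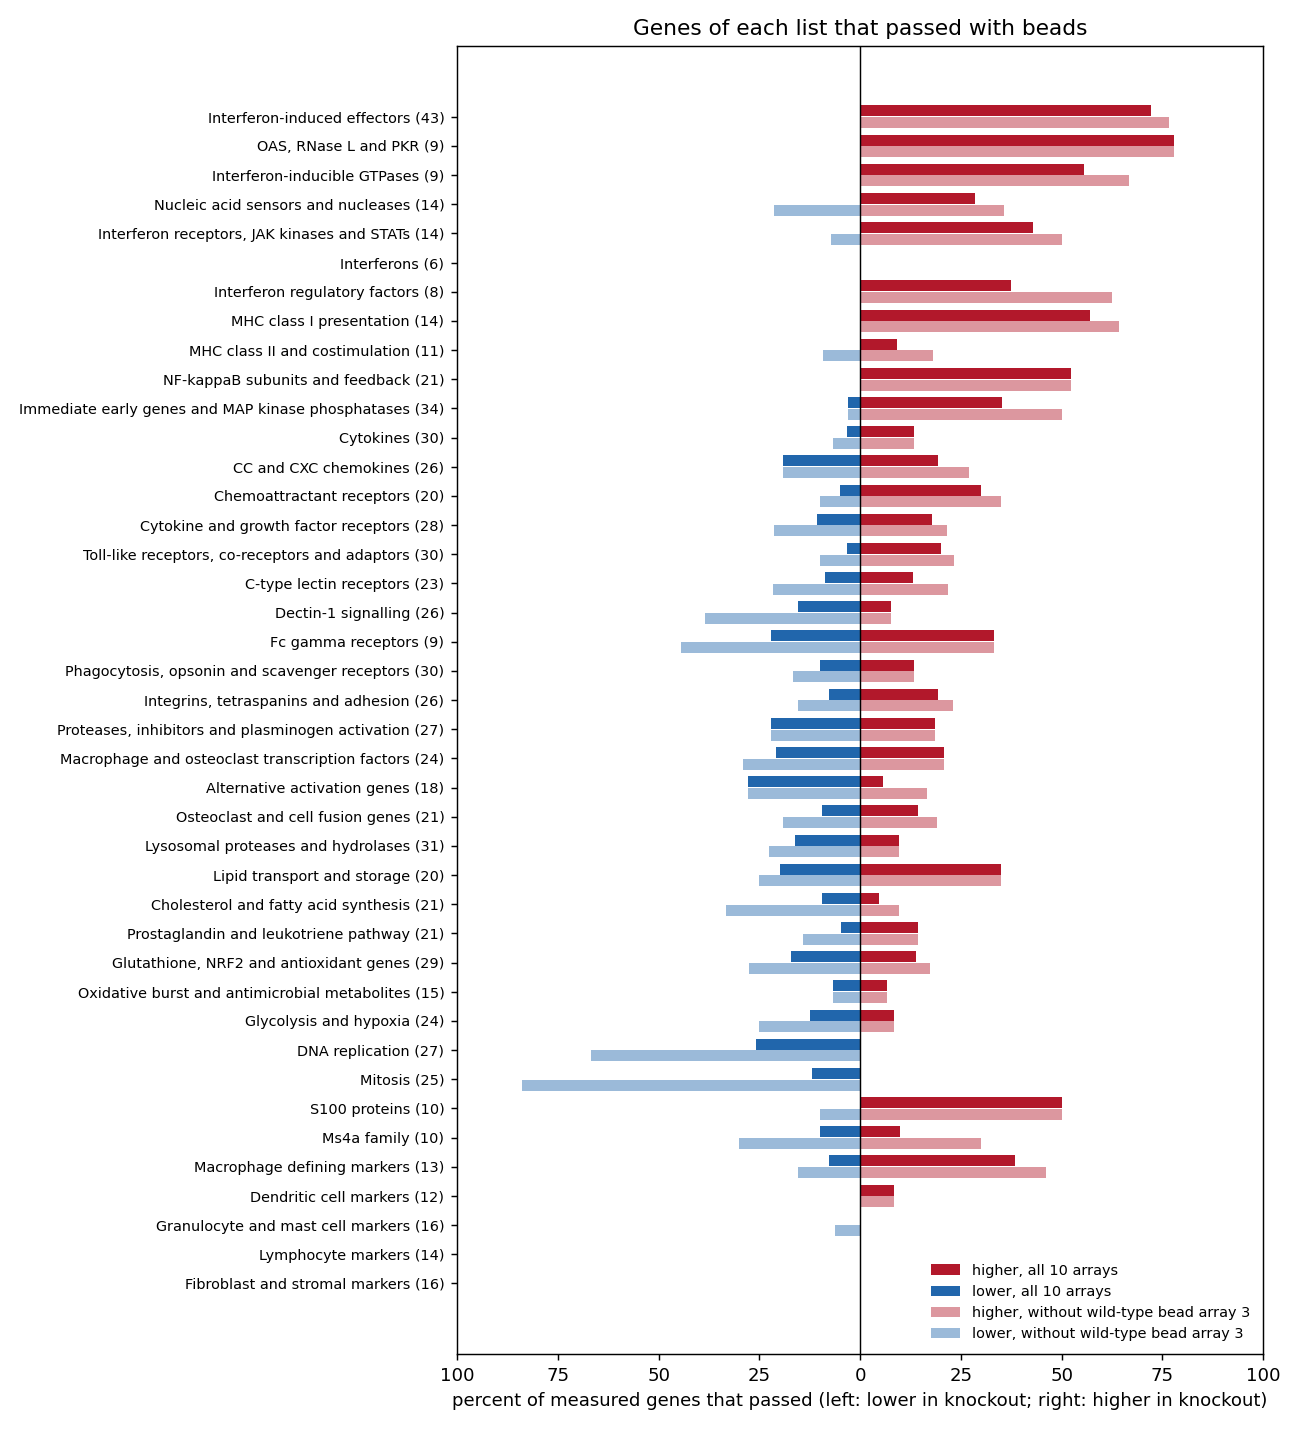
Percent of the measured genes of each list (number in brackets) that passed with beads, to the right of 0 when higher and to the left when lower in the knockout line. Dark bars are the fit of all 10 arrays and pale bars the fit without wild-type bead array 3. The dark bar of the interferon-induced effectors reaches right for 31 of 43 genes with 0 to the left, the pale bars of the nucleic acid sensors run both ways (5 and 3 of 14), and the bars of the mitosis list grow from 3 to 21 of 25 when that array is left out.

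Of the NF-kappaB subunits and their feedback regulators, 11 of 21 were higher and 0 lower (11 and 0 without wild-type array 3), with a median difference of 0.50, and the 11 were 7 without knockout bead array 2. Tnip3, which restrains NF-kappaB together with A20, read 9.70 and 10.27 in knockout against 7.25, 7.12 and 6.18 in wild type (3.13 ± 0.31). The inhibitor Nfkbie (1.47 ± 0.12), the ubiquitin ligase Birc3 (1.37 ± 0.15) and the subunit Nfkb2 (0.91 ± 0.13) were also higher, Nfkb2 not with the bead arrays alone (adjusted p = 0.0535). Of immediate early genes and MAP kinase phosphatases, 12 of 34 were higher and 1 lower (17 and 1 without wild-type array 3), with a median difference of 0.38, and the 12 were 7 without knockout bead array 2. Dusp1, a phosphatase that switches off p38 and JNK, read 10.51 and 10.64 in knockout against 7.79, 7.74 and 7.28 in wild type (2.97 ± 0.15, 7.86-fold). Klf6, a zinc finger transcription factor, read 9.53 and 9.76 in knockout against 6.82, 6.65 and 6.63 in wild type (2.94 ± 0.13, 7.7-fold), and the AP-1 subunit Fos 8.49 and 8.58 in knockout against 6.05, 5.98 and 6.44 in wild type (2.38 ± 0.15). These arrays did not overlap, as in every gene that passed. Zfp36 (tristetraprolin), which destabilises cytokine mRNA, was higher by 1.93 ± 0.31. Klf2, which quiets inflammatory genes in macrophages, was the 1 lower gene (7.82 and 7.49 in knockout against 9.13, 9.05 and 8.80 in wild type, a difference of -1.34 ± 0.13). The call of Zfp36 did not hold without knockout bead array 2 (adjusted p = 0.069).

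Cytokine genes differed in single members. Of the cytokine genes, 4 of 30 were higher and 1 lower (4 and 2 without wild-type array 3), with a median difference of 0.03. Tnf, an inflammatory cytokine that Dectin-1 induces, read 9.80 and 10.06 in knockout against 9.39, 9.27 and 9.06 in wild type (0.69 ± 0.12, 1.62-fold, adjusted p = 0.00814). Ebi3, a subunit of interleukins 27 and 35 (1.26 ± 0.23), Il18 (1.15 ± 0.20) and Il1rn, the interleukin 1 receptor antagonist (0.98 ± 0.10), were higher. Csf1, the macrophage growth factor, read 8.58 and 8.84 in knockout against 9.88, 9.78 and 9.35 in wild type (-0.96 ± 0.15) and was lower. Of these 5, Il1rn passed with each array left out in turn. With 1 array left out, the calls lost were those of Csf1 without knockout bead array 1 (adjusted p = 0.0622), and Ebi3, Il18 and Tnf without knockout bead array 2 (adjusted p = 0.0783 to 0.121).

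Chemokines went both ways. Of the CC and CXC chemokines, 5 of 26 were higher and 5 lower (7 and 5 without wild-type array 3), with a median difference of 0.04. The 5 higher were Cxcl10, Cxcl16, Ccl5, Cxcl14 and Pf4. Cxcl10, which draws activated T cells and NK cells through Cxcr3, read 9.67 and 10.09 in knockout against 5.37, 5.33 and 5.61 in wild type (21.8-fold). Ccl5 (RANTES) read 9.35 and 9.86 in knockout against 6.57, 6.65 and 6.80 in wild type (2.93 ± 0.23), and Cxcl14 9.49 and 9.78 in knockout against 7.09, 6.94 and 6.88 in wild type (2.67 ± 0.14). Cxcl16, both a chemokine and a scavenger receptor, read 7.97 and 8.32 in knockout against 4.57, 4.47 and 5.22 in wild type, and its wild-type arrays 1 and 2 lay below the 25th percentile. The 5 lower were Ccl7, Ccl24, Ccl2, Ccl3 and Ccl12. Ccl7, a monocyte attractant that acts through Ccr2, read 6.41 and 6.73 in knockout against 8.47, 8.46 and 8.44 in wild type (-1.89 ± 0.15). Ccl2, which uses the same receptor, read 8.73 and 9.00 in knockout against 10.06, 10.02 and 9.61 in wild type (-1.03 ± 0.17). The eosinophil attractant Ccl24 differed by -1.51 ± 0.13. The lower count of 5 was 3 without knockout bead array 2, wild-type bead array 1 or 2 or wild-type unstimulated array 1 or 3, and 2 without knockout bead array 1. Leaving out 1 array at a time ended the calls of Ccl2 without knockout bead array 1 (adjusted p = 0.0698), Ccl3 with any 1 array left out except wild-type array 3 and knockout unstimulated arrays 1 and 2 (adjusted p = 0.0594 to 0.293), and Ccl12 without knockout bead array 1 or 2, wild-type bead array 1 or 2 or wild-type unstimulated array 1 or 3 (adjusted p = 0.0528 to 0.189).

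Of the receptors for chemoattractants, 6 of 20 were higher and 1 lower (7 and 2 without wild-type array 3), with a median difference of 0.11. Ptafr, the receptor of platelet-activating factor, read 8.09 and 8.32 in knockout against 6.67, 6.69 and 6.63 in wild type (1.54 ± 0.12). The oxysterol receptor Gpr183 (1.06 ± 0.11) and the nucleotide receptor P2ry6 (0.76 ± 0.19) were higher, and P2ry13, which binds ADP, was lower (-1.47 ± 0.20). The count of 6 higher was 3 without knockout bead array 1, and 2 without knockout bead array 2. Of cytokine and growth factor receptors, 5 of 28 were higher and 3 lower (6 and 6 without wild-type array 3), with a median difference of 0.13. Il13ra1, the chain through which macrophages sense interleukins 4 and 13, read 4.89 and 4.88 in knockout against 8.49, 8.52 and 7.74 in wild type (-3.37 ± 0.24). Knockout bead array 1 lay below the 25th percentile there, so no fold is given. The growth factor Igf1 was lower (-1.23 ± 0.14) and Csf2rb2, a chain of the interleukin 3 receptor, higher (0.99 ± 0.18). The other higher genes were the shared cytokine chain Il6st (0.95 ± 0.23), the macrophage growth factor receptor Csf1r (0.61 ± 0.12) and the interleukin 10 receptor chain Il10ra (0.49 ± 0.09). The count of 5 higher was 1 without knockout bead array 1 or 2. Calls that did not hold with 1 array left out were those of Csf1r, Csf2rb2 and Il10ra without knockout bead array 1 or 2 (adjusted p = 0.0585 to 0.153), P2ry6 with any 1 array left out except wild-type array 3 and wild-type bead array 1 (adjusted p = 0.0614 to 0.323), and Il6st with any 1 array left out except wild-type array 3 and wild-type bead arrays 1 and 2 (adjusted p = 0.056 to 0.271).

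Receptors that meet microbes directly differed in single members. Of Toll-like receptors, co-receptors and adaptors, 6 of 30 were higher and 1 lower (7 and 3 without wild-type array 3), with a median difference of 0.10. Cd14, which hands lipopolysaccharide to Tlr4, read 10.31 and 10.64 in knockout against 8.20, 8.25 and 7.71 in wild type (2.42 ± 0.18, 5.34-fold). Tlr2, the receptor of bacterial and fungal lipoproteins and zymosan, read 10.50 and 10.59 in knockout against 9.33, 9.33 and 8.99 in wild type (1.33 ± 0.12). The protease Ctss, which cuts endosomal Toll-like receptors into their active form (1.74 ± 0.12), and Ly86, the partner of Cd180 (1.64 ± 0.13), were also higher. Tlr9 itself read 7.35 and 7.31 in knockout against 7.03, 7.21 and 7.44 in wild type (0.10 ± 0.15, adjusted p = 1, and 0.315 without wild-type array 3). Its arrays overlapped between the lines. The position of its probe set, 10588479, relative to the deletion is not stated, so the label of the line cannot be checked by it. Hsp90b1, a chaperone that Toll-like receptors need for folding, was the 1 lower gene (-0.59 ± 0.15). Hsp90b1 no longer passed with any 1 array left out except wild-type array 3 (adjusted p = 0.0594 to 0.281).

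Clec7a, which encodes Dectin-1, read 7.29 and 7.68 in knockout against 8.29, 8.49 and 7.61 in wild type (-0.65 ± 0.23, adjusted p = 0.165). Wild-type array 3 overlapped the knockout arrays while arrays 1 and 2 lay above them, and without it Clec7a was lower (-0.91, adjusted p = 0.000898). With all 10 arrays it was also lower after quantile normalisation (-0.62, adjusted p = 0.0252). With array weights it was lower too (-0.99, adjusted p = 7.87e-05). Those weights did not converge to tolerance and set wild-type array 3 at 0.07, so that fit nearly left it out. Syk read 8.68 and 8.70 in knockout against 9.00, 8.79 and 8.49 in wild type (-0.07 ± 0.15, adjusted p = 1) and Card9 7.92 and 7.87 in knockout against 7.90, 7.96 and 8.15 in wild type (-0.11 ± 0.12, adjusted p = 0.962). Of the Dectin-1 signalling genes, 2 of 26 were higher and 4 lower (2 and 10 without wild-type array 3), with a median difference of -0.04. Src, a kinase of the family that starts Dectin-1 signalling, read 8.22 and 8.28 in knockout against 6.55, 6.42 and 7.00 in wild type (1.59 ± 0.18), and Bcl10, which joins Card9 to Malt1, 8.33 and 8.41 in knockout against 7.36, 7.50 and 7.54 in wild type (0.90 ± 0.12). Rasgrp3, an activator of Ras (-1.03 ± 0.16), and the phosphatase Ptpn11 (-0.47 ± 0.12) were among the 4 lower. The phosphatase Ptpn6 (-0.42 ± 0.10) and the lipid kinase Pik3cd (-0.44 ± 0.11) completed them. That count of 4 was 2 without wild-type unstimulated array 2, and 1 with any 1 array left out except wild-type array 3 and knockout bead array 1 and wild-type unstimulated array 2, and 0 without knockout bead array 1. Leaving out 1 array at a time ended the calls of Rasgrp3 without knockout bead array 1 (adjusted p = 0.056), Ptpn11 and Ptpn6 with any 1 array left out except wild-type array 3 (adjusted p = 0.0523 to 0.289), and Pik3cd with any 1 array left out except wild-type array 3 and wild-type unstimulated array 2 (adjusted p = 0.0622 to 0.308).

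Of C-type lectin receptors, 3 of 23 were higher and 2 lower (5 and 5 without wild-type array 3), with a median difference of -0.01. The inhibitory receptor Clec12a, which binds uric acid crystals, read 9.85 and 10.02 in knockout against 7.06, 6.92 and 6.24 in wild type (3.20 ± 0.24). Clec4n, Dectin-2, which binds fungal mannans, was lower (-1.10 ± 0.27). Clec4a2, an inhibitory lectin, was higher (1.01 ± 0.13). Among Fc gamma receptors and their relatives, 3 of 9 were higher and 2 lower (3 and 4 without wild-type array 3), with a median difference of 0.03. Fcgr2b, the inhibitory receptor of IgG complexes, read 8.67 and 8.74 in knockout against 11.46, 11.47 and 11.37 in wild type (-2.72 ± 0.09, 6.6-fold lower). The inhibitory receptor Pirb (1.24 ± 0.13) and the high-affinity IgG receptor Fcgr1 (0.88 ± 0.15) were higher, and Pilra, another inhibitory receptor, lower (-1.44 ± 0.26). Fcrls, a relative of the Fc receptors, was low in wild type and higher in knockout (0.61 ± 0.13). The count of 3 higher was 1 without knockout bead array 2. Calls that did not hold with 1 array left out were those of Fcgr1 without knockout bead array 2 (adjusted p = 0.0871), Pilra without knockout bead array 1 (adjusted p = 0.104), and Clec4n with any 1 array left out except wild-type array 3 (adjusted p = 0.0522 to 0.273). The same applied to Fcrls without knockout bead array 1 or 2 or wild-type bead array 1 or 2 (adjusted p = 0.0506 to 0.222).

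Receptors and bridging proteins for the uptake of dead cells and lipoproteins went both ways. Of the genes for phagocytosis, opsonins and scavenger receptors, 4 of 30 were higher and 3 lower (4 and 5 without wild-type array 3), with a median difference of 0.03. Mertk, a receptor kinase that binds dying cells through bridging proteins, read 6.12 and 6.04 in knockout against 8.29, 8.21 and 7.55 in wild type (-1.94 ± 0.21), and Gas6, one such bridge, 7.68 and 7.99 in knockout against 10.62, 10.61 and 10.16 in wild type (-2.63 ± 0.16, 6.18-fold lower). Pros1, the other bridge, was low in wild type and read 5.78 and 6.24 in knockout against 4.51, 4.34 and 4.69 in wild type (1.50 ± 0.19). The scavenger receptor Msr1 was higher by 1.47 ± 0.32. The scavenger receptors Cd36 (0.83 ± 0.21) and Stab1 (0.57 ± 0.13) were higher too, and Trem1 was lower and low in knockout. The count of 4 higher was 2 without knockout unstimulated array 1 or 2, wild-type bead array 2 or wild-type unstimulated array 1, 2 or 3, and 1 without knockout bead array 1 or 2. With 1 array left out, the calls lost were those of Msr1 and Trem1 without knockout bead array 1 or 2 (adjusted p = 0.0748 to 0.215), and Cd36 and Stab1 with any 1 array left out except wild-type array 3 and wild-type bead array 1 (adjusted p = 0.0521 to 0.344).

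More alternative activation genes were lower than higher, and macrophage transcription factors went both ways. Of alternative activation genes, 1 of 18 was higher and 5 lower (3 and 5 without wild-type array 3), with a median difference of -0.03. The mannose receptor Mrc1 read 6.11 and 5.89 in knockout against 10.02, 10.02 and 9.29 in wild type (-3.78 ± 0.20, 13.7-fold lower), and Arg1, which turns arginine into ornithine, 5.33 and 5.36 in knockout against 7.17, 6.81 and 6.62 in wild type (-1.52 ± 0.19). Ccl24 and Il13ra1, given above, and Il4ra (-0.45 ± 0.09) were the other lower members. The 1 higher was Pparg (1.02 ± 0.18). Of the macrophage and osteoclast transcription factors, 5 of 24 were higher and 5 lower (5 and 7 without wild-type array 3), with a median difference of 0.14. Maf, a factor of mature resident macrophages, read 6.99 and 6.63 in knockout against 9.91, 9.83 and 9.86 in wild type (-3.06 ± 0.14, 8.32-fold lower), the nuclear receptor Rxra 6.93 and 6.94 in knockout against 9.09, 9.11 and 8.55 in wild type (-1.98 ± 0.16) and Id2, an inhibitor of helix-loop-helix factors, 8.28 and 8.33 in knockout against 10.03, 9.93 and 9.32 in wild type (-1.45 ± 0.20). Etv3, a repressor of the ETS family, was higher (1.38 ± 0.12). So were Zeb2 (0.98 ± 0.18), Tfe3 (0.57 ± 0.13) and Cebpa (0.42 ± 0.09), and Bhlhe41 (-1.14 ± 0.28) and Id1 (-0.66 ± 0.13) were lower. The count of 5 higher was 3 without wild-type bead array 2, and 1 without knockout bead array 1 or 2. The count of 5 lower was 3 without knockout bead array 1 or 2 or wild-type bead array 1 or 2. Leaving out 1 array at a time ended the calls of Pparg and Zeb2 without knockout bead array 1 or 2 (adjusted p = 0.0531 to 0.0989), Bhlhe41 with any 1 array left out except wild-type array 3 (adjusted p = 0.0575 to 0.33), and Cebpa without knockout bead array 1 or 2 or wild-type bead array 2 (adjusted p = 0.0714 to 0.216). The same applied to Il4ra without knockout bead array 1 or 2 or wild-type bead array 1 (adjusted p = 0.0567 to 0.185), and to Id1 without knockout bead array 1 or 2 or wild-type bead array 1 or 2 (adjusted p = 0.0535 to 0.152), and to Tfe3 with any 1 array left out except wild-type array 3 and wild-type bead array 1 and wild-type unstimulated array 1 (adjusted p = 0.0505 to 0.23).

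Of osteoclast and cell fusion genes, 3 of 21 were higher and 2 lower (4 and 4 without wild-type array 3), with a median difference of 0.21. Ctsk, the collagen-cutting protease of osteoclasts, read 7.44 and 7.76 in knockout against 12.25, 12.24 and 12.06 in wild type (-4.58 ± 0.15, 23.9-fold lower), and the proton pump subunit Atp6v0d2 10.35 and 10.71 in knockout against 11.95, 11.86 and 11.45 in wild type (-1.22 ± 0.17). Dcstamp, a membrane protein needed for macrophage fusion, went the other way and read 8.15 and 8.72 in knockout against 4.88, 4.88 and 5.30 in wild type (3.41 ± 0.18). The creatine kinase Ckb was higher by 1.04 ± 0.10. Ocstamp, a fusion protein related to Dcstamp, was higher by 0.94 ± 0.13. Of lysosomal proteases and hydrolases, 3 of 31 were higher and 5 lower (3 and 7 without wild-type array 3), with a median difference of -0.08. The sulfatase Arsg was lower (6.23 and 6.29 in knockout against 9.51, 9.43 and 8.93 in wild type, -3.03 ± 0.15), and the cathepsins Ctsl (0.95 ± 0.11) and Ctsf (0.94 ± 0.12) were higher. So was Npc2, which carries cholesterol out of lysosomes (0.71 ± 0.15). The other lower members were the glucosidase Gaa (-0.53 ± 0.11), the sialidase Neu1 (-0.48 ± 0.12) and the glucuronidase Gusb (-0.54 ± 0.09), with Ctsk. Its count of 5 lower was 3 without knockout bead array 1 or wild-type bead array 1 or 2, and 2 without knockout bead array 2. Calls that did not hold with 1 array left out were those of Gusb without knockout bead array 2 (adjusted p = 0.0843), Npc2 without knockout bead array 1 or 2 (adjusted p = 0.11 to 0.159), and Neu1 with any 1 array left out except wild-type array 3 (adjusted p = 0.0564 to 0.318). The same applied to Gaa without knockout bead array 1 or 2 or wild-type bead array 1 or 2 (adjusted p = 0.0601 to 0.214).

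Several integrin chains were higher. Of integrins, tetraspanins and adhesion molecules, 5 of 26 were higher and 2 lower (6 and 4 without wild-type array 3), with a median difference of 0.02. Itga6, a laminin receptor chain, read 9.23 and 9.64 in knockout against 7.13, 6.95 and 6.49 in wild type (2.58 ± 0.21, 5.97-fold), the fibronectin receptor chain Itga5 10.24 and 10.40 in knockout against 8.91, 8.84 and 8.34 in wild type (1.62 ± 0.18), and Itgav, which binds vitronectin and latent TGF-beta, 11.04 and 11.10 in knockout against 9.53, 9.53 and 9.36 in wild type (1.60 ± 0.12). The tetraspanin Tspan10 was lower (6.21 and 6.22 in knockout against 9.71, 9.64 and 9.14 in wild type). So was its relative Tspan32 (-0.87 ± 0.16). The beta chains Itgb7 (1.09 ± 0.11) and Itgb5 (0.97 ± 0.14) were higher. Itgb5 did not pass with the bead arrays alone (adjusted p = 0.0636) or with median centring (0.0565). The count of 2 lower was 1 without knockout bead array 1. Of proteases, inhibitors and plasminogen activation genes, 5 of 27 were higher and 6 lower (5 and 6 without wild-type array 3), with a median difference of 0.04. The shedding protease Adam8 was higher (11.39 and 11.73 in knockout against 9.56, 9.52 and 8.94 in wild type, 2.22 ± 0.21). So were the plasminogen activator Plau (1.03 ± 0.14), its receptor Plaur (0.63 ± 0.13), the cystatin Cst3 (0.96 ± 0.15) and the elastase Mmp12 (0.82 ± 0.15). F13a1, a transglutaminase of clots and macrophages, was lower (5.15 and 5.26 in knockout against 8.40, 8.28 and 7.66 in wild type, -2.91 ± 0.21), as were Cst7, a cystatin that restrains cathepsins (-2.16 ± 0.15), and the protease Adamts1 (-1.85 ± 0.16). That count of 5 higher was 2 without knockout bead array 2. With 1 array left out, the calls lost were those of Cst3, Mmp12 and Plaur without knockout bead array 2 (adjusted p = 0.0606 to 0.195), and Tspan32 without knockout bead array 1 (adjusted p = 0.104).

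Lipid genes went both ways. Of the lipid transport and storage genes, 7 of 20 were higher and 4 lower (7 and 5 without wild-type array 3), with a median difference of 0.12. Apoe, the lipoprotein that macrophages secrete to carry cholesterol away, read 8.33 and 7.90 in knockout against 11.63, 11.72 and 11.75 in wild type (-3.58 ± 0.16, 12-fold lower), and Abcd2, a peroxisomal fatty acid transporter, 5.40 and 5.27 in knockout against 7.54, 7.52 and 7.46 in wild type (-2.17 ± 0.09). Plin2, which coats lipid droplets, was higher (11.10 and 11.15 in knockout against 9.74, 9.75 and 9.63 in wild type, 1.42 ± 0.09). The fatty acid-binding protein Fabp5 (-1.38 ± 0.16) and the phospholipid transfer protein Pltp (-1.02 ± 0.23) were the other lower members. The transporters Abca1 and Abcg1 were higher. With the bead arrays alone they differed by 0.91 and 0.63 and did not pass (adjusted p = 0.0507 and 0.06). Abca1 also lost its call without knockout bead array 2 (adjusted p = 0.102), and Abcg1 without knockout bead array 1 or 2 (0.0608 and 0.059). The count of 7 higher was 3 without knockout bead array 1, and 2 without knockout bead array 2. Of the cholesterol and fatty acid synthesis genes, 1 of 21 was higher and 2 lower (2 and 7 without wild-type array 3), with a median difference of -0.03. The sterol reductase Dhcr7 (-1.04 ± 0.15) and the desaturase Scd2 (-0.78 ± 0.16) were lower and Srebf2, the transcription factor of the pathway, higher (0.45 ± 0.10). Of prostaglandin and leukotriene genes, 3 of 21 were higher and 1 lower (3 and 3 without wild-type array 3), with a median difference of 0.01. Hpgd, which inactivates prostaglandins, read 7.89 and 8.44 in knockout against 5.22, 5.02 and 5.33 in wild type (2.98 ± 0.18). Ptgs2, the inducible cyclooxygenase (1.10 ± 0.20), and the prostaglandin receptor Ptger4 (0.96 ± 0.13) were higher and the leukotriene synthase Ltc4s lower (-1.70 ± 0.27). Leaving out 1 array at a time ended the calls of Ltc4s without knockout bead array 1 (adjusted p = 0.051), Ptgs2 without knockout bead array 1 or 2 (adjusted p = 0.0513 to 0.0984), and Scd2 without knockout bead array 1 or 2 or wild-type bead array 2 (adjusted p = 0.0569 to 0.148). The same applied to Pltp without knockout bead array 1 or 2, wild-type bead array 1 or 2 or wild-type unstimulated array 3 (adjusted p = 0.0541 to 0.24), and to Srebf2 without knockout bead array 1 or 2, wild-type bead array 1 or 2 or wild-type unstimulated array 1 or 3 (adjusted p = 0.0506 to 0.211).

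Of glutathione, NRF2 and antioxidant genes, 4 of 29 were higher and 5 lower (5 and 8 without wild-type array 3), with a median difference of -0.05. After Gstp1, the transferase Gsta3 (-1.47 ± 0.23) and the haem oxygenase Hmox1 (-0.84 ± 0.10) were lower, and the malic enzyme Me1 was higher (0.91 ± 0.19). Gclc, which starts glutathione synthesis (-0.73 ± 0.13), and the transferase Gstm2 (-0.60 ± 0.15) were lower as well, and the pentose phosphate enzymes Taldo1 (0.75 ± 0.10) and Pgd (0.48 ± 0.10) and the superoxide dismutase Sod1 (0.57 ± 0.09) higher. Taldo1 did not pass with the bead arrays alone (adjusted p = 0.0544) or with median centring (0.0594). The count of 4 higher was 2 without knockout bead array 1, and 1 without knockout bead array 2. The count of 5 lower was 3 without knockout bead array 1, and 2 without knockout bead array 2. Of the oxidative burst and antimicrobial metabolite genes, 1 of 15 was higher and 1 lower (1 and 1 without wild-type array 3), with a median difference of -0.09. Cybb, the catalytic subunit of the phagocyte NADPH oxidase, was its 1 higher gene and read 11.42 and 11.72 in knockout against 9.19, 9.05 and 7.97 in wild type (2.83 ± 0.33, 7.13-fold). Arg1 was the 1 lower. Of glycolysis and hypoxia genes, 2 of 24 were higher and 3 lower (2 and 6 without wild-type array 3), with a median difference of -0.11. The lactate exporter Slc16a3 read 8.88 and 8.56 in knockout against 6.46, 6.50 and 6.92 in wild type (2.09 ± 0.17) and was higher, as was Slc2a1, described with the unstimulated arrays. The sugar transporter Slc2a6 (-0.99 ± 0.12), the peptide Adm (-0.95 ± 0.18) and the mitophagy receptor Bnip3 (-0.70 ± 0.12) were lower. The count of 2 higher was 1 without knockout bead array 1 or 2, wild-type bead array 1 or 2 or wild-type unstimulated array 1 or 3. Calls that did not hold with 1 array left out were those of Adm, Gsta3 and Sod1 without knockout bead array 2 (adjusted p = 0.0593 to 0.14), Bnip3 without knockout bead array 1 (adjusted p = 0.0969), and Gclc and Me1 without knockout bead array 1 or 2 (adjusted p = 0.0593 to 0.146). The same applied to Gstm2 with any 1 array left out except wild-type array 3 (adjusted p = 0.0534 to 0.268), and to Pgd without knockout bead array 1 or 2 or wild-type bead array 2 (adjusted p = 0.0533 to 0.162), and to Slc2a1 without knockout bead array 1 or 2, wild-type bead array 1 or 2 or wild-type unstimulated array 1 or 3 (adjusted p = 0.0502 to 0.228).

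Proliferation genes were the group that depended most on wild-type array 3. Of DNA replication genes, 0 of 27 were higher and 7 lower (0 and 18 without wild-type array 3), with a median difference of -0.40. Mcm2, a subunit of the replicative helicase, read 9.54 and 9.57 in knockout against 10.53, 10.51 and 10.42 in wild type (-0.93 ± 0.09), and Ccne1, the cyclin of S-phase entry, 8.70 and 8.95 in knockout against 9.81, 9.87 and 9.48 in wild type (-0.90 ± 0.13). Mcm7 differed by -0.87 ± 0.13 and the replication initiator Mcm10 by -0.75 ± 0.18. Mcm7 and Ccne1 did not pass with the bead arrays alone (adjusted p = 0.0589 and 0.0708), nor Ccne1 with median centring (0.0625). The count of 7 lower was 4 without wild-type bead array 2, and 3 without knockout bead array 1 or 2. Of mitosis genes, 0 of 25 were higher and 3 lower (0 and 21 without wild-type array 3), with a median difference of -0.38. The kinases Plk1 (-0.74 ± 0.13), Bub1 (-0.71 ± 0.16) and Melk (-0.66 ± 0.14) were the 3 lower. That count was 1 without wild-type bead array 1 or 2, and 0 without knockout bead array 1 or 2. With 1 array left out, the calls lost were those of Plk1 without knockout bead array 1 or 2 (adjusted p = 0.0652 to 0.0674), Melk without knockout bead array 1 or 2 or wild-type bead array 1 or 2 (adjusted p = 0.051 to 0.2), and Mcm10 with any 1 array left out except wild-type array 3 and wild-type unstimulated array 2 (adjusted p = 0.0549 to 0.247). The same applied to Bub1 without knockout bead array 1 or 2, wild-type bead array 1 or 2 or wild-type unstimulated array 1 (adjusted p = 0.0517 to 0.274).

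Against the mean of wild-type bead arrays 1 and 2, the 27 replication genes had a median of -0.69 and -0.57 in the knockout bead arrays and of -0.37 in wild-type array 3. For the 25 mitosis genes these medians were -0.62, -0.45 and -0.50, so wild-type array 3 lay among the knockout arrays. Unstimulated wild-type arrays had medians of -0.20 to -0.02 for replication and -0.12 to 0.09 for mitosis, and unstimulated knockout arrays of -0.84 and -0.70, and of -0.65 and -0.59.

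**Figure D3:**
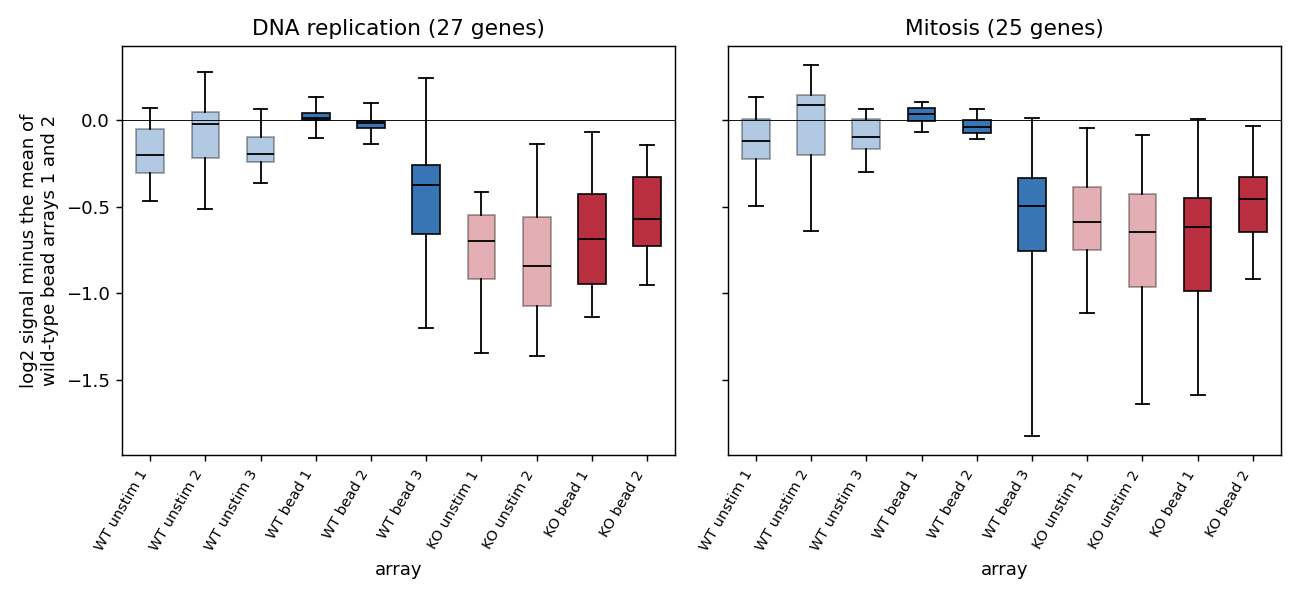
Log2 signal of each DNA replication gene (left) and mitosis gene (right) in each of the 10 arrays, minus that gene's mean over wild-type bead arrays 1 and 2. Boxes span the quartiles, the line is the median and whiskers reach the lowest and highest gene. WT is wild type and KO knockout, and pale boxes are unstimulated arrays. Wild-type bead array 3 has a median of -0.37 for replication and -0.50 for mitosis genes, near the knockout arrays.

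Signal level moved with the same arrays. Without wild-type array 3 the median difference was 0.15 over the 6768 genes of signal 5 to 7, -0.14 over the 5113 genes of 7 to 9 and -0.17 over the 2056 genes of 9 to 11, and 1492 and 651 genes of the latter 2 bands were lower. With all arrays these medians were 0.01, -0.03 and -0.05. The SD over genes was 1.86 and 1.95 in the knockout bead arrays and 2.00 and 1.98 in wild-type bead arrays 1 and 2. Of the proliferation genes, 24 of 27 replication and 25 of 25 mitosis genes had signals of 7 to 11, and the part of signal range in their counts was not tested.

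**Figure D4:**
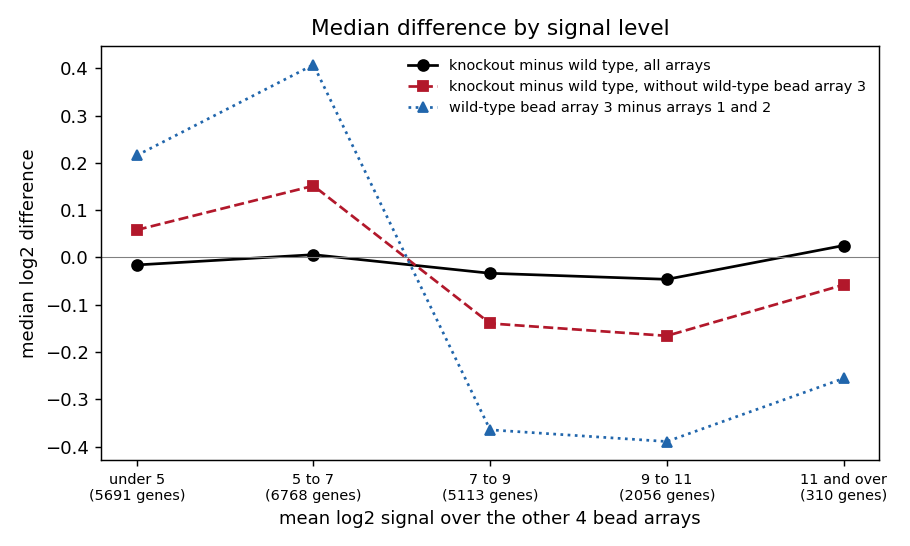
Median log2 difference over genes in 5 bands of signal (mean of the 4 bead arrays other than wild-type bead array 3). Circles are knockout minus wild type with all arrays, squares the same without wild-type bead array 3, triangles wild-type bead array 3 minus the mean of wild-type bead arrays 1 and 2. Circles stay within 0.05 of 0, whereas squares run from 0.15 to -0.17 and triangles from 0.41 to -0.39.

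Of the S100 proteins, small calcium-binding proteins, 5 of 10 were higher and 0 lower (5 and 1 without wild-type array 3), with a median difference of 0.52. Beside S100a6, S100a11 read 12.46 and 12.69 in knockout against 10.60, 10.50 and 10.09 in wild type (2.17 ± 0.16), S100a10, the partner of annexin A2, 10.99 and 11.13 in knockout against 9.58, 9.50 and 9.22 in wild type (1.63 ± 0.14), and S100a4 was higher by 1.31 ± 0.23. S100a13 was higher by 1.07 ± 0.13. A second S100a11 probe set gave 2.30. Of the Ms4a family of membrane proteins, 1 of 10 was higher and 1 lower (3 and 3 without wild-type array 3), with a median difference of -0.01. The lower was Ms4a7 (-1.73 ± 0.33) and the higher Ms4a6c (0.78 ± 0.17). Leaving out 1 array at a time ended the calls of S100a4 without knockout bead array 2 (adjusted p = 0.0905), and Ms4a6c and Ms4a7 without knockout bead array 1 or 2 (adjusted p = 0.0595 to 0.215).

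Macrophage markers were present in both lines. None of 13 defining markers was low in the bead arrays, and the lysosomal glycoprotein Cd68 read 12.37 and 12.59 in knockout against 12.85, 12.78 and 12.31 in wild type. Of these, 5 of 13 were higher and 1 lower (6 and 2 without wild-type array 3), with a median difference of 0.58. Mpeg1, the pore-forming perforin-2, read 11.02 and 11.09 in knockout against 9.26, 9.01 and 8.35 in wild type (2.18 ± 0.25), and Mertk was the 1 lower gene. The surface marker Adgre1 was higher (0.85 ± 0.16), as was Csf1r, given above. The 5 higher markers numbered 3 without knockout bead array 1, and 2 without knockout bead array 2. Of 12 dendritic cell markers 1 was higher, Cd24a, which was low in wild type (4.84 and 5.90 in knockout against 4.18, 3.99 and 4.01 in wild type). Of 16 granulocyte and mast cell markers, 14 lymphocyte markers and 16 fibroblast and stromal markers 0 passed in limma with all arrays. Without wild-type array 3, Cxcr2 passed (-0.31, adjusted p = 0.0309), though it was low in both lines. Median levels over the lymphocyte list were 4.87 and 4.70 in knockout against 4.57, 4.65 and 5.23 in wild type, and over the stromal list 5.40 and 5.31 against 5.22, 5.27 and 5.86. Calls that did not hold with 1 array left out were those of Adgre1 and Csf1r without knockout bead array 1 or 2 (adjusted p = 0.0574 to 0.153), and Cd24a without knockout bead array 2, wild-type bead array 1 or 2 or wild-type unstimulated array 3 (adjusted p = 0.0508 to 0.204).

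The difference between the lines with beads was set against that without beads, on the 5 unstimulated arrays, to see which genes depended on the stimulus. Both comparisons came from 1 fit with a shared estimate of spread per gene, so their calls were not independent. Leaving out wild-type array 3, a bead array, raised the calls without beads from 1645 to 3668. Of the 1439 genes, 1190 (82.7%) passed in the same direction without beads, which is 72.3% of the 1645 that passed there. Of the remaining 249, 247 had the same sign without beads. The median size over the 249 was 0.59 with and 0.37 without. These genes were picked for passing with beads and not without, so a larger size with beads follows from the choice. The 2 of opposite sign were Slc2a1 and Trp53inp1. The glucose transporter Slc2a1 read 11.52 and 11.40 in knockout against 11.02, 10.99 and 11.03 in wild type with beads (0.45 ± 0.10) and differed by -0.13 ± 0.10 without.

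No gene passed, in the fit of all 10 arrays, the test of the difference itself, that is, of the line difference with beads minus that without. In limma 0 of 19938 passed (smallest adjusted p = 1.0), and 172 (0.863%) had an unadjusted p under 0.05. That is far fewer than a threshold of 0.05 gives when no gene differs. The count of 0 therefore cannot tell an absent dependence on beads from a missed one. The bead minus unstimulated value was -0.77 ± 0.19 for Maf, 0.70 ± 0.18 for Il7r, -0.63 ± 0.15 for Oasl2, 0.62 ± 0.16 for Itgav and -0.22 ± 0.19 for Irf7. In the fit of all 10 arrays a line difference that depends on beads was thus not detectable for any gene. With array weights 9 genes passed, in a fit that did not converge to tolerance. Without wild-type array 3 the count was 1, with 976 at an unadjusted p under 0.05, and 0 when the 9 remaining arrays were also quantile normalised. The gene was Cd72, an inhibitory receptor of B cells and macrophages.

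**Figure D5:**
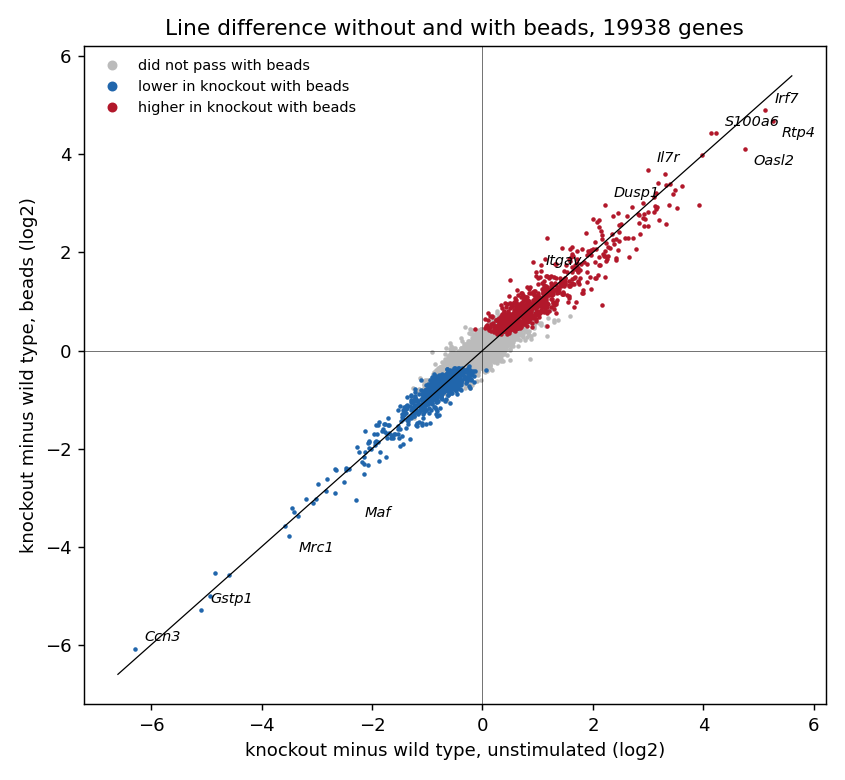
Knockout minus wild type for each of 19938 genes, unstimulated (x axis, log2) and with beads (y axis, log2). Colours mark the 761 genes higher and 678 lower with beads, and the line is equality. The 2 comparisons share no arrays, and Irf7 (5.12 and 4.91) and Ccn3 (-6.28 and -6.08) lie at the ends.

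The next 6 genes did not pass in the fit of all 10 arrays and passed without wild-type array 3. Mrps27, a mitochondrial ribosomal protein, read 6.52 and 6.67 in knockout against 8.15, 8.13 and 6.18 in wild type, so that wild-type array 3 lay below both knockout arrays. Its difference was -0.89 ± 0.55 with all arrays and -1.55 without. Gstm5, a glutathione transferase, read 5.77 and 6.04 in knockout against 7.74, 7.77 and 6.34 in wild type (-1.37 ± 0.37, -1.85 without), and Pdk3, a kinase that holds back pyruvate dehydrogenase, 5.70 and 6.12 in knockout against 7.55, 7.46 and 6.47 in wild type (-1.25 ± 0.34, -1.59). In Pgap1 and Lipn the differences went from -1.17 ± 0.36 and -1.01 ± 0.35 to -1.61 and -1.45, though a second Pgap1 probe set differed by -0.31 with all arrays. Zbtb41 read 6.75 and 7.17 in knockout against 8.50, 8.30 and 7.08 in wild type (-1.44 without). In each of these 6 genes wild-type arrays 1 and 2 lay close together, and array 3 lay by about 1 log2 unit or more below both. The genes were picked for passing only without array 3, so this pattern follows from the choice. All 6 also passed with array weights, but those set wild-type array 3 at 0.07 and so nearly left it out. With all arrays kept, Gstm5 and Pdk3 passed after centring on the 75th percentile (adjusted p = 0.0213 and 0.0237), in the trended and robust fit (0.0489 and 0.0499) and with the filter on low signal (0.0341 for both), and Pgap1 after centring on the 75th percentile (0.036) or quantile normalisation (0.0357).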

How the data were processed

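The authors deposited log2 signals made with RMA, per the submitters' processing notes, for 28853 probe sets on 10 arrays. Whether all arrays were normalised together is not stated. Of the probe sets, 21789 carried 1 gene symbol, 1621 several and 5443 were not named here, and 21698 symbols were updated by Entrez ID. Each of 19938 genes was read from its probe set of highest mean signal (999 had several). limma 3.58.1 in R 4.3.3 fitted 4 group means to all 10 arrays (lmFit, eBayes, 6 residual and 3.23 prior degrees of freedom), with Benjamini-Hochberg adjustment over all genes, and the code was tested on simulated data. With 2 or 3 arrays a group, their number limits the precision. The arrays of a group shared no replicate number across groups. The 41 gene lists held 901 entries, of which 825 were measured, 21 lay on shared probe sets and 55 were not analysed here. Members and lists were chosen with earlier results of these data known. Genes named are the 15 highest and 15 lowest that passed with and without wild-type bead array 3 and did not overlap (predicted genes, olfactory and vomeronasal receptors, small RNAs, ribosomal protein and histone genes left out), up to 4 passing members of each list with the widest differences (2 where 0 passed), 6 that passed without that array but not with all 10, and Tlr9, Clec7a, Tnf, Syk, Card9 and Ifnb1. Others (Pf4, Ccl3, Ccl12, Il4ra, Aim2, Ikbke, Rnaseh2b, Cd68, Cxcr2, Slc2a1, Trp53inp1 and Cd72) were named after their values were seen, as were the further members of lists in which 5 or fewer passed in a direction. The same holds for Bst2, Ifi203, Ifitm3, Ifitm6, Mx2, Phf11d, Shisa5, Trim30d, Abca1 and Abcg1. Promoters were taken from RefSeq (GRCm38.p6) by symbol.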

Additional observations from a re-analysis of the deposited data

Results flagged for a closer look

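Cd72 was the 1 gene to pass the test of a line difference that depends on beads when wild-type bead array 3 was left out, which is why it is listed here. The line difference with beads minus that without was -1.09 ± 0.11 (limma, adjusted p = 0.0381) in that fit and -0.75 ± 0.38 (adjusted p = 1) with all arrays. With array weights, under which 9 genes passed, it was -1.06 (adjusted p = 0.0385), but these weights set wild-type bead array 3 at 0.07. With quantile normalisation and without wild-type bead array 3 it did not pass (adjusted p = 0.0523). The bead arrays read 8.90 and 9.01 in knockout against 8.67, 8.68 and 7.65 in wild type, and the unstimulated arrays 9.61 and 9.55 against 8.22, 8.17 and 8.26. The lines did not overlap in either condition. Groups of 2 or 3 arrays are too small for a test of single outlying arrays.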

How the results depend on the processing

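With 1 array left out at a time, 597 (without knockout bead array 2) to 4171 (without wild-type bead array 3) genes passed with beads, 326 to 1433 of them higher and 265 to 2738 lower. The test of dependence on beads passed 0 to 1 genes, and the comparison without beads 681 to 3668. The bead arrays fitted alone passed 480 genes (299 higher, 181 lower), and centring on array medians 734 (429 and 305). Quantile normalisation passed 2283 (1179 and 1104) and array weights 6083 (2770 and 3313), although the weights did not converge to tolerance. The weight was 0.07 for wild-type bead array 3 and 12.1 for wild-type bead array 2. Without beads, median centring, quantile normalisation and array weights passed 772, 2481 and 4451, and array weights also passed 9 genes in the test of dependence on beads. The next 2 alternatives were chosen after seeing the data. The bead arrays alone without wild-type bead array 3 passed 4340 (1590 and 2750), and quantile normalisation without it 4058 (1834 and 2224), 3914 without beads and 0 in the test of dependence on beads. Centring on the 75th percentile, the trended and robust fit, the filter on low signal and the mean of a gene's probe sets kept these counts within 1.5 times.

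The alternatives were followed for 268 genes, those named by rule and the list members that passed. Of these, 249 passed and 0 changed to a call in the other direction, and 9 of the 19 that did not pass did so in at least 1 alternative. Calls were lost in at least 1 alternative for 114 of the 249: 112 with the bead arrays alone, 91 with median centring, 96 without knockout bead array 2, 74 without knockout bead array 1 and 0 without wild-type bead array 3. The cause was not tested. No paired analysis was possible because arrays of different groups carry no common number in their labels. Levels near the bottom of an array limit the folds of low genes.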
